A study of Mus musculus with 40 samples.

Results

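The genes described here are members of the bone morphogenetic protein (BMP) pathway and the Id genes that it controls: the ligands Bmp2 and Bmp4, the receptor Bmpr1a, the decoy receptor Bambi, the intracellular inhibitor Smad6, and Id1, Id2, Id3 and Id4. The 9 genes were chosen by name, and every gene probe whose current or older symbol was one of them was taken. On the arrays of the early time course 8 of the 9 genes had a probe, among 13914 named genes and 42006 gene probes. The arrays of the Nanog experiment also carried 8 of them, among 13931 named genes and 41006 gene probes. The arrays of the late time course carried 7, among 11395 named genes and 21052 gene probes, and no probe there was named Id1. Each gene had 1 probe on a design. No probe carried the name Bambi itself. One probe is named for Bambi-ps1, a pseudogene of Bambi, and since it was not tested whether that probe also reads Bambi, its values are given apart and it is left out of all counts.

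BMP ligands are secreted proteins that bring type I and type II receptors together at the cell surface; the receptors then phosphorylate the SMAD proteins of the BMP branch, which enter the nucleus with SMAD4 and switch on target genes. The Id genes are among the best known of these targets. Id proteins have a helix-loop-helix domain but no DNA-binding region, so they pair with basic helix-loop-helix factors and keep them from DNA, and in mouse ES cells BMP signals acting through Id genes help LIF (leukemia inhibitory factor) to hold back differentiation. SMAD6 and SMAD7 are inhibitory SMADs that are themselves switched on by the pathway.

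The data were 40 microarrays of cultured mouse embryonic stem (ES) cells. Both time courses used ZHBTc4, a single ES line of strain 129/Ola in which the endogenous Pou5f1 alleles are disrupted and the only Pou5f1 comes from a transgene that tetracycline shuts off, so that the 0 hr cells carry these alleles too. The treatment label of the late arrays instead tells of a Tcl1 construct in EBRTcH3 cells, another ES line, against their titles, which name ZHBTc4 and were followed. Cells were grown with serum and LIF on gelatin after passages to remove feeder cells, and were collected for the late time course at 0 hr and after 24, 48, 72, 96 or 120 hr of tetracycline (3 arrays each), and for the early time course at 0 hr and after 3, 6, 12 or 24 hr (2 arrays each). The Nanog experiment compared a clone labelled episomal Nanog, with a Nanog expression plasmid kept outside the chromosomes of MG1.19 cells (ES cells with the polyoma large T antigen), and a clone labelled integrated Nanog of strain 129SvEv-Tac, with the parental lines MG1.19 (labelled 129Sv) and 129.3 (labelled 129SvEv-Tac). The study's methods name the cells that received the integrated plasmid as MC1, a name the array labels do not carry. By the study's methods each transgenic line was 1 clone. Of the arrays labelled episomal Nanog, only the one with LIF carries a clone number in its title. Each of the 4 lines was measured on 1 array in each of 3 media over 3 days. The media were complete medium with LIF, medium without LIF, and complete medium with 1 µM retinoic acid. The labels do not say that replicate arrays came from separate cultures, so p-values measure the spread between these samples, which may be technical.

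Every sample was labelled with Cy3 and hybridised against the same reference RNA, Universal Mouse Reference, in Cy5. Levels are given as the log2 ratio of Cy3 to Cy5. A difference was called when its limma adjusted p was under 0.05 over all gene probes of the fit and its size was at least 1.5-fold. All comparisons within a time course share the 0 hr arrays. In bulk RNA, fewer cells of a type and less RNA per cell cannot be told apart.

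Median Cy3 intensity was 531 to 776 units per array, and the share of gene probes at or under the 95th percentile of the negative control spots was 0.407 to 6.77% on the early arrays, 1.78 to 5.06% on the Nanog arrays and 16.3 to 30.2% on the late arrays. On the late arrays the Pou5f1 probe read 1.91, 2.40 and 2.04 at 0 hr and between -0.30 and 0.12 at all later times (log2 change -2.18 at 24 hr, limma adjusted p = 2.41e-10). On the early arrays the probe identical to it read 2.92 and 1.52 at 0 hr and -0.53 and -0.61 at 24 hr (log2 change -2.79, limma adjusted p = 0.00125), while a second, brighter Pou5f1 probe read 3.97 and 3.97 at 0 hr and 3.46 and 3.38 at 24 hr, less than 1.5-fold lower. The Nanog probe was 0.87, 0.17 and 1.22 higher on the log2 scale in the clone labelled integrated Nanog than in its parental line (LIF, no LIF, retinoic acid), but it differed by -0.63, -0.46 and -0.60 in the clone labelled episomal Nanog, against that label. By real-time PCR the study's methods report raised Nanog in both clones, and more so in the episomal clone. Whether this probe reads the Nanog transcript made from the plasmids is not known here. Among the 8 ES cell markers 7 fell by 120 hr on the late arrays (median log2 change -2.17) and 8 of 11 measured trophoblast markers rose (median 2.72).

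The 3 promoters below belong to the genes whose levels moved most after tetracycline, and are shown for the letters that BMP-SMAD complexes are known to bind: the GC-rich box GGCGCC, the SMAD box CAGAC and the palindrome GTCTAGAC. Each was searched on both strands, so that the second match in Id3 is the SMAD box read on the other strand, and a match of the palindrome overlaps no full match of the SMAD box. They are RefSeq sequences of assembly GRCm38.p6, 250 bases before the annotated start to 10 bases after it, read 5′ to 3′ on the gene's own strand, with the matches in capitals.
Smad6 (chr9:64022050-64022309, minus strand): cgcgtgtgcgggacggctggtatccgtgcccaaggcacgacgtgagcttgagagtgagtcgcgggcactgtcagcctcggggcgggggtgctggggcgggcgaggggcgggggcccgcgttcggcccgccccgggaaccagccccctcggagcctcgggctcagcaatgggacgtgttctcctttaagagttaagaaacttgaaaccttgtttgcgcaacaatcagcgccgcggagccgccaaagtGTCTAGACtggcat
Id2 (chr12:25096083-25096342, minus strand): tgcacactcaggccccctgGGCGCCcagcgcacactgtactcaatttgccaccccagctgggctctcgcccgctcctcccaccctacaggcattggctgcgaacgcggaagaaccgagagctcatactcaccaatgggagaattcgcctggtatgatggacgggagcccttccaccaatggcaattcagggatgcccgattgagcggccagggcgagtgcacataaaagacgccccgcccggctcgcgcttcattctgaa
Id3 (chr4:136143572-136143831, plus strand): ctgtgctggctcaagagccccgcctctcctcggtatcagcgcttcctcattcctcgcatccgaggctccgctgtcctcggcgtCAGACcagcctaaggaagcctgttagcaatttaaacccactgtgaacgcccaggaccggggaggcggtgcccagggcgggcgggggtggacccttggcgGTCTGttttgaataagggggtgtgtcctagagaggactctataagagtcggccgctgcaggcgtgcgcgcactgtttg
In Smad6 the palindrome lay across the annotated start, with its first base at position -4 from that start, and 70 of 32851 RefSeq promoter windows held it (0.213%), each counted, like those of the genes, from 250 bases before to 50 bases after the start. In Id2 the GC-rich box began at position -231, and 11.9% of all promoters held that box. In Id3 the SMAD box began at position -167 and its reverse form at position -68, and 49.6% of all promoters held the box on either strand. Of the other genes, Bmpr1a and Id4 held the GC-rich box, beginning at positions -198 and -148, and the Bmp4 promoter held none of the 3. Id1 and Bmp2 had no entry. A match is only a match of letters.

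In the late time course the 7 measured genes went different ways. Id2 rose 16.8-fold by 120 hr and Id3 rose 5.05-fold by 96 hr, Smad6 rose 5.22-fold at 24 hr and was back near its starting level by 72 hr, Bmpr1a rose 2.12-fold by 120 hr, and Bmp4 and Id4 were 1.83-fold and 2.5-fold lower by then. At 24 hr 3 of the 7 genes were called (2 up, 1 down), against 7.61% of all gene probes. At 48 hr 4 genes were called (3 up, 1 down), against 10.3% of probes, and at 72 hr 4 (2 up, 2 down), against 14.4%. At 96 and 120 hr 5 genes were called at each time (3 up, 2 down), against 17.9 and 20.7% of probes. The median log2 change of the 7 genes was 0.13 at 120 hr, beside 0 over all probes. The trophoblast markers moved over the same hours, with a summed Cy3 level of 15.5 to 19.2 times the negative control level at 0 hr, 34.4 to 42.3 times at 24 hr and 269 to 368 times at 120 hr, while the summed ES markers went from 118 to 185 times down to 14.9 to 21.9 times; the part of this change of cells in the results for single genes was not tested.

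**Figure D1:**
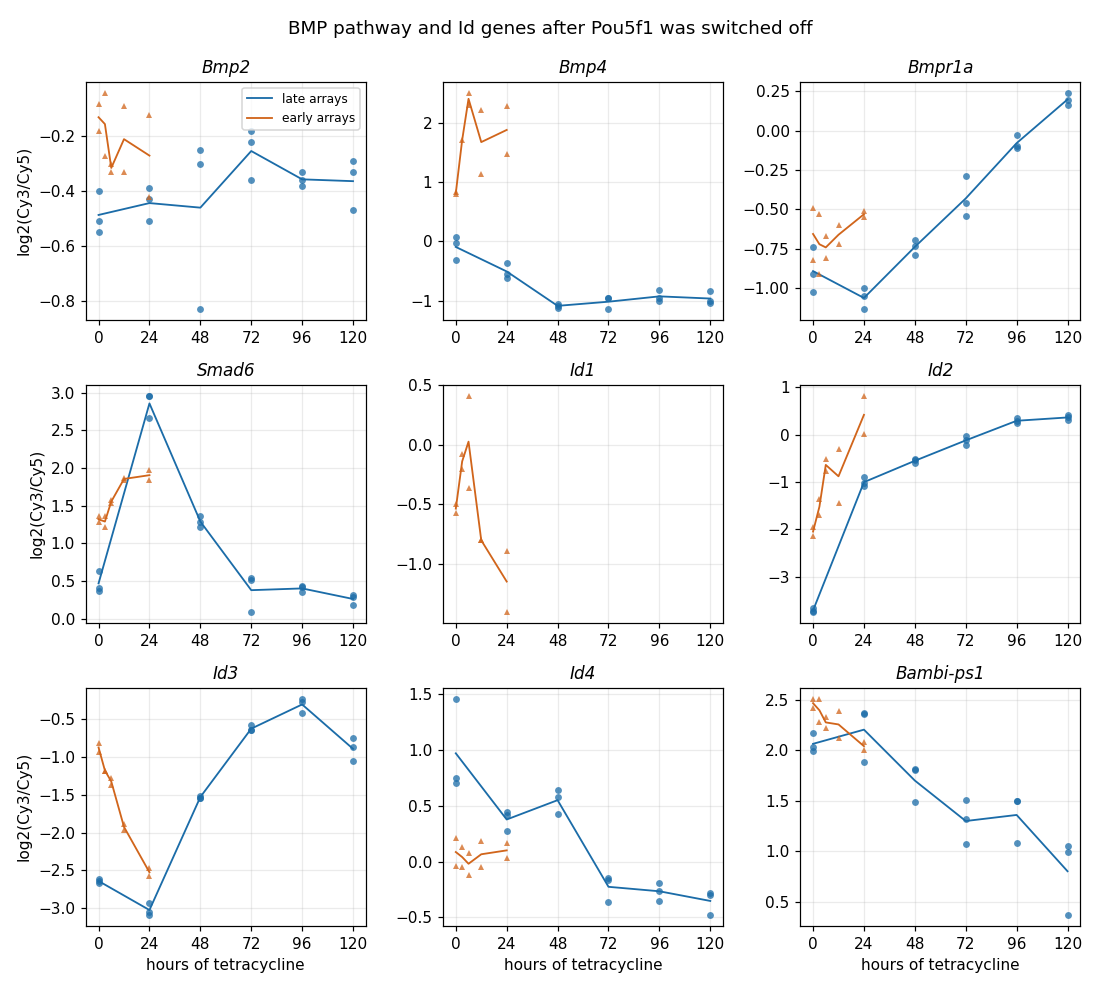
Log2 ratio of Cy3 to Cy5 against hours after tetracycline for each gene, with a point for each array and lines through the group means, late arrays and early arrays in different colours. Id2 and Id3 climbed on the late arrays, Smad6 peaked at 24 hr, and Id3 sank on the early arrays; the 2 designs are not on a common level scale.

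Bmp4, a ligand that together with LIF can support ES cells without serum, read -0.03, 0.07 and -0.32 on the 3 arrays at 0 hr and -0.36, -0.55 and -0.61 at 24 hr. It read -1.05, -1.09 and -1.12 at 48 hr and -0.84, -1.04 and -1.01 at 120 hr. The 0 hr arrays lay above all arrays of every later time, and the level was steady from 48 hr on. Its mean went from -0.09 ± 0.20 (SD, n = 3) at 0 hr to -1.09 ± 0.04 (SD, n = 3) at 48 hr, a log2 change of -0.99 (SE 0.09, 1.99-fold lower, limma adjusted p = 2.86e-07). The changes at 72, 96 and 120 hr were -0.93, -0.83 and -0.87, all called. The change of -0.42 at 24 hr was under 1.5-fold. With the authors' value table, which follows Cy3 alone, Bmp4 was at -0.54 and -0.56 at 96 and 120 hr, under the fold threshold.

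Bmp2, a ligand of the same family, lay between -0.83 and -0.18 on all 18 late arrays, with its Cy3 signal at 0.916 to 1.2 times the 95th percentile of the negative controls. The 72 and 96 hr arrays lay just above those of 0 hr and the other times overlapped them, and none of the 5 changes was called. At 120 hr the log2 change was 0.13 with a 95% confidence interval of -0.11 to 0.36. At a signal this near the negative controls a change of that size was not detectable.

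Bmpr1a, a type I receptor for BMP2 and BMP4, read -0.91, -1.02 and -0.74 at 0 hr, -0.54, -0.29 and -0.46 at 72 hr, then 0.16, 0.24 and 0.19 at 120 hr. From 48 hr on each later time lay above the one before it, with no overlap between neighbouring times. The log2 change was 0.46 at 72 hr, under 1.5-fold, then 0.81 at 96 hr, then 1.09 at 120 hr (SE 0.07, 2.12-fold, limma adjusted p = 1.06e-09). No single step between consecutive times reached 1.5-fold.

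Smad6 blocks the activation of the BMP-branch SMADs by the receptor. It read 0.41, 0.37 and 0.63 at 0 hr and 2.95, 2.96 and 2.66 at 24 hr. It then read 1.22, 1.29 and 1.36 at 48 hr, and 0.09, 0.51 and 0.54 at 72 hr. The 24 hr arrays stood far above all others, those of 48 hr lay between, and from 72 hr on the arrays overlapped or lay just under those of 0 hr. The rise from 0.47 ± 0.14 (SD, n = 3) to 2.85 ± 0.17 (SD, n = 3) was 2.38 on the log2 scale (SE 0.11, 5.22-fold, limma adjusted p = 6.86e-11). Both steps down were called as well, by -1.56 from 24 to 48 hr and by -0.91 from 48 to 72 hr. At 72, 96 and 120 hr the differences from 0 hr were -0.09, -0.07 and -0.21, not called. No other of the 7 genes had a called rise followed by a return to its 0 hr level.

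Id2, an Id gene active in many differentiating tissues, was the gene that moved most. It read -3.72, -3.66 and -3.74 at 0 hr, where its Cy3 signal was 1.24 to 1.51 times the negative control level, and -1.09, -1.02 and -0.90 at 24 hr. At 96 hr it read 0.35, 0.28 and 0.24, and at 120 hr 0.41, 0.36 and 0.31, with a signal 9.27 to 15.1 times the negative controls. The arrays of 0, 24, 48, 72 and 96 hr formed separate, rising groups, and only the last 2 times overlapped. The log2 change was 2.71 at 24 hr (SE 0.06, 6.53-fold, limma adjusted p = 1.41e-14) and 4.07 at 120 hr (16.8-fold, limma adjusted p = 7.69e-18), so that most of the rise on the log2 scale had come by 24 hr. The signal at 0 hr was close to that of the negative controls, which presses ratios together, so the fold from 0 hr may be understated.

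Id3 took another course. It read -2.67, -2.61 and -2.64 at 0 hr and -3.05, -3.09 and -2.93 at 24 hr. It then read -1.51, -1.54 and -1.54 at 48 hr, and -0.23, -0.42 and -0.27 at 96 hr. At 120 hr it read -0.75, -0.87 and -1.06. The 24 hr arrays lay under all others, the 96 hr arrays above all others, and no 2 neighbouring times overlapped. The drop of -0.38 at 24 hr had a limma adjusted p of 0.000475 but was under 1.5-fold. From 24 to 48 hr Id3 rose by 1.49 and from 48 to 72 hr by 0.90, both called, and at 96 hr it was 2.34 above 0 hr (SE 0.07, 5.05-fold, limma adjusted p = 4.15e-14). The step down from 96 to 120 hr was -0.59 (limma adjusted p = 6.85e-05), at the fold threshold; it fell under 1.5-fold without replicate 1 (-0.55) or 3 (-0.57) at 96 hr or replicate 3 at 120 hr (-0.51), and with the authors' value table (-0.55).

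Id4 was dim, with a Cy3 signal of 1.02 to 1.75 times the negative control level over the late arrays. It read 0.70, 0.75 and 1.46 at 0 hr, where replicate 3 stood above the other two, 0.58, 0.64 and 0.43 at 48 hr and -0.36, -0.17 and -0.15 at 72 hr. At 120 hr it read -0.48, -0.28 and -0.30. All arrays from 72 hr on lay below all earlier ones. The log2 change was -1.32 at 120 hr (SE 0.14, 2.5-fold lower, limma adjusted p = 5.6e-07). The smaller change of -0.59 at 24 hr (limma adjusted p = 0.00415) was lost without replicate 3 at 0 hr (-0.35) or replicate 3 at 24 hr (-0.54), and with other treatments of the background or of the Cy5 channel.

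Between consecutive times, 2 of the 7 genes were called from 24 to 48 hr against 3.38% of probes, and 3 from 48 to 72 hr against 2.74%. None was called from 72 to 96 hr, against 1.35% (284 probes passed the limma threshold and 3744 had an unadjusted p under 0.05), and 1, Id3, from 96 to 120 hr, against 0.58%. The Bambi-ps1 probe read 1.99, 2.03 and 2.17 at 0 hr and 0.37, 1.05 and 0.99 at 120 hr, with no overlap. Its log2 change at 120 hr was -1.26 (2.4-fold lower, limma adjusted p = 1.35e-05), and it was also called lower at 72 and 96 hr.

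In the early time course Id3 read lower at each later time and was called from 12 hr on, and Id2 and Smad6 were called higher at 24 hr. No gene was called at 3 hr, where no gene probe passed (0% of probes by limma; 2642 had an unadjusted p under 0.05). At 6 hr 1 of 8 genes was called against 2.21% of probes, at 12 hr 1 against 0.593%, and at 24 hr 3 (2 up, 1 down) against 9.02%. None of these calls was made when the larger of a probe's own variance and the mean variance of probes of similar intensity was used in place of limma's (0 of 32 tests of the genes, 7 with an unadjusted p under 0.05, and 0 over all probes). The median log2 change of the 8 genes at 24 hr was 0.06, beside -0.06 over all probes. At 24 hr 6 of 12 trophoblast markers had risen and 3 of 8 ES markers had fallen, and the summed trophoblast level was 115 times the negative controls on both arrays, up from 66.1 to 74.6 times at 0 hr; their part in these results was not tested.

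Id3 read -0.81 and -0.94 at 0 hr, -1.18 and -1.18 at 3 hr, then -1.37 and -1.28 at 6 hr. It read -1.88 and -1.97 at 12 hr, and -2.58 and -2.47 at 24 hr. Each time lay below the one before it on both arrays. The log2 change was -1.05 at 12 hr (2.07-fold lower, limma adjusted p = 0.0014) and -1.65 at 24 hr (SE 0.09, 3.13-fold lower, limma adjusted p = 2.13e-05). Its Cy5 level stayed between 12.61 and 13.03 on the log2 scale, and with Cy3 alone the 24 hr change was -1.50. Under the rule with the larger variance the adjusted p was 0.806 at 12 hr and 0.129 at 24 hr.

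Smad6 read 1.28 and 1.36 at 0 hr, 1.87 and 1.84 at 12 hr, then 1.97 and 1.84 at 24 hr, with both later times above 0 hr. The log2 change at 24 hr was 0.59 (SE 0.09, limma adjusted p = 0.00384), exactly at the 1.5-fold threshold. It was under the threshold at 0.47 with the scanner's processed signals or the authors' value table, at 0.50 after the Cy5 correction described next, and at 0.54 or 0.52 without replicate 1 at 0 or 24 hr, and was 1.01 with Cy3 alone. Under the rule with the larger variance its adjusted p was 0.253.

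For Bmp4, Id2 and Id1 the reference channel moved during the early time course, although it held the same RNA on every array. It moved for other genes too. On the log2 scale the Cy5 level of Id4 went from 8.41 and 8.65 at 0 hr to 8.98 and 9.36 at 24 hr. That of Smad6 went from 7.43 and 7.65 to 7.84 and 8.11. For Bmp2 it was 9.23 and 9.36 at 0 hr and 8.78 and 8.82 at 3 hr. The study corrected its own values for fading of Cy5, and the index of that fading ranged over 1.95 on the log2 scale among the early arrays, over 0.78 among the late arrays and over 1.61 among the Nanog arrays. The Cy5 level of Bmp4 was 11.67 and 11.91 at 0 hr, 10.28 and 10.04 at 6 hr, then 10.42 and 9.54 at 24 hr. Its ratio moved the other way, from 0.83 and 0.80 at 0 hr to 2.30 and 2.51 at 6 hr, then 1.47 and 2.29 at 24 hr. The log2 change at 6 hr was 1.59 (SE 0.34, limma adjusted p = 0.0498) and was called, but it was 0.00 with Cy3 alone and 0.13 after the Cy5 correction, and it was lost when any single array of 0, 3 or 6 hr was left out (1.49 to 1.70). At 24 hr the ratio differed by 1.07 (limma adjusted p = 0.0526), not called, while Cy3 alone gave -0.80 and the authors' value table -0.82, both called lower. The direction of Bmp4 in the early time course therefore depended on the channel used.

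Id2 read -1.95 and -2.14 at 0 hr, -0.77 and -0.51 at 6 hr, then -1.45 and -0.31 at 12 hr, and 0.01 and 0.82 at 24 hr. Both 24 hr arrays lay above all others. The log2 change at 24 hr was 2.46 (SE 0.35, 5.5-fold, limma adjusted p = 0.00239). Its Cy5 level went from 11.36 and 11.68 to 10.47 and 9.86 over the same hours, and with Cy3 alone or after the Cy5 correction the change was 1.10 or 0.86, both still called. Under the rule with the larger variance, above, the 24 hr call was lost (adjusted p = 0.195). At 6 hr the ratio differed by 1.41 (limma adjusted p = 0.0654) but Cy3 alone by 0.06.

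Id1, the Id gene most often used as a readout of BMP signalling, read -0.50 and -0.57 at 0 hr, 0.41 and -0.36 at 6 hr, then -1.40 and -0.89 at 24 hr. The 24 hr arrays were the lowest. The log2 change at 24 hr was -0.61 (SE 0.23, limma adjusted p = 0.0752), not called, and -1.31 with Cy3 alone, called (adjusted p = 6.6e-05).

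Bmpr1a, Bmp2 and Id4 differed from 0 hr by 0.12, -0.14 and 0.01 at 24 hr, none of them called. With Cy3 alone Id4 was called higher at 24 hr (0.63). The Bambi-ps1 probe read 2.42 and 2.51 at 0 hr and 2.00 and 2.08 at 24 hr, a difference under 1.5-fold.

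**Figure D2:**
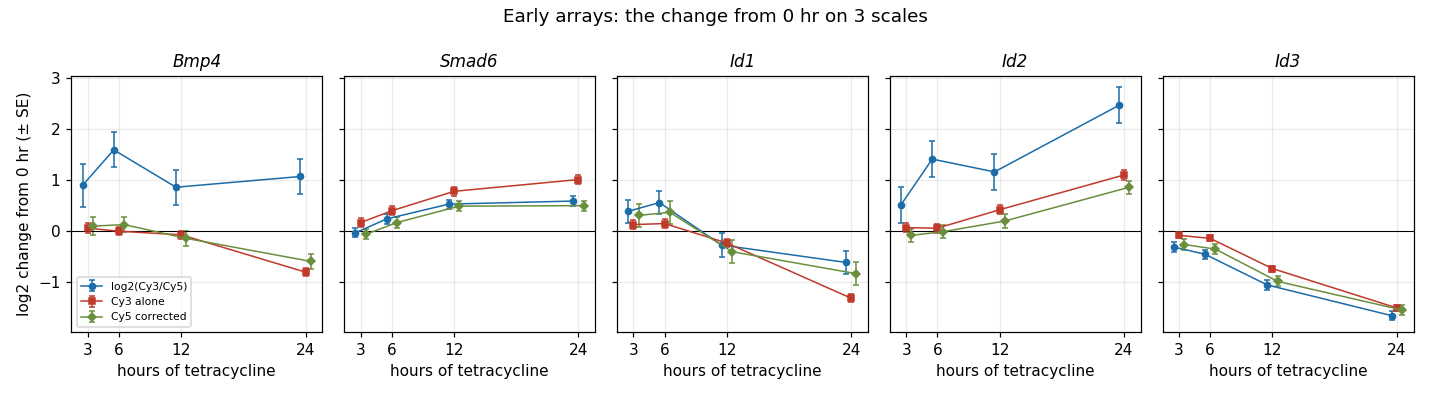
Log2 change from 0 hr on the early arrays for Bmp4, Smad6, Id1, Id2 and Id3 at 3, 6, 12 and 24 hr. Each was computed from the ratio of Cy3 to Cy5, from Cy3 alone and from the ratio after correction for Cy5 fading. Id3 sank by each scale, while the rise of Bmp4 in the ratio was absent from the other two.

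The 24 hr time was measured in both time courses, so the response to 24 hr of tetracycline could be compared between them over 19163 probes of the same sequence. Of the 7 genes on both designs 4 differed, against 15.2% of probes. Smad6 rose more on the late arrays by 1.80 on the log2 scale (SE 0.16, limma adjusted p = 3.06e-08), and this difference was 1.71 to 2.07 under all alternatives that kept every array. Id3 differed by 1.27 (SE 0.11, limma adjusted p = 3.7e-08), with a change of -1.65 on the early arrays and of -0.38, under the fold threshold, on the late ones. Bmp4 differed by -1.49 (limma adjusted p = 0.000891), but by 0.56 with the authors' value table, 0.50 with Cy3 alone and 0.18 after the Cy5 correction. Id4 differed by -0.61 (limma adjusted p = 0.0363), which was lost at -0.48 with the scanner's processed signals, at -0.45 with the authors' value table, at -0.69 after the Cy5 correction, and without any of 5 single arrays, among them replicate 3 at 0 hr of the late time course (-0.36). Id2 differed by 0.25 (limma adjusted p = 0.561), but by 1.81 with the authors' value table and with Cy3 alone and by 1.85 after the Cy5 correction, all called. The experiments were done at different times on different array designs, so experiment and design cannot be told apart.

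In the Nanog experiment the medium was compared over the 4 lines, each line being its own block. A clone and its parental line share an origin, so the 4 lines are not 4 independent replicates. Socs3, a target of LIF signalling, differed without LIF by -2.93 to -2.05 on the log2 scale over the 4 lines, and Cyp26a1, which retinoic acid induces, was higher by 2.14 to 3.03 with retinoic acid. With retinoic acid Id3, Smad6 and Bmpr1a rose, and without LIF only Bmpr1a was called.

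**Figure D3:**
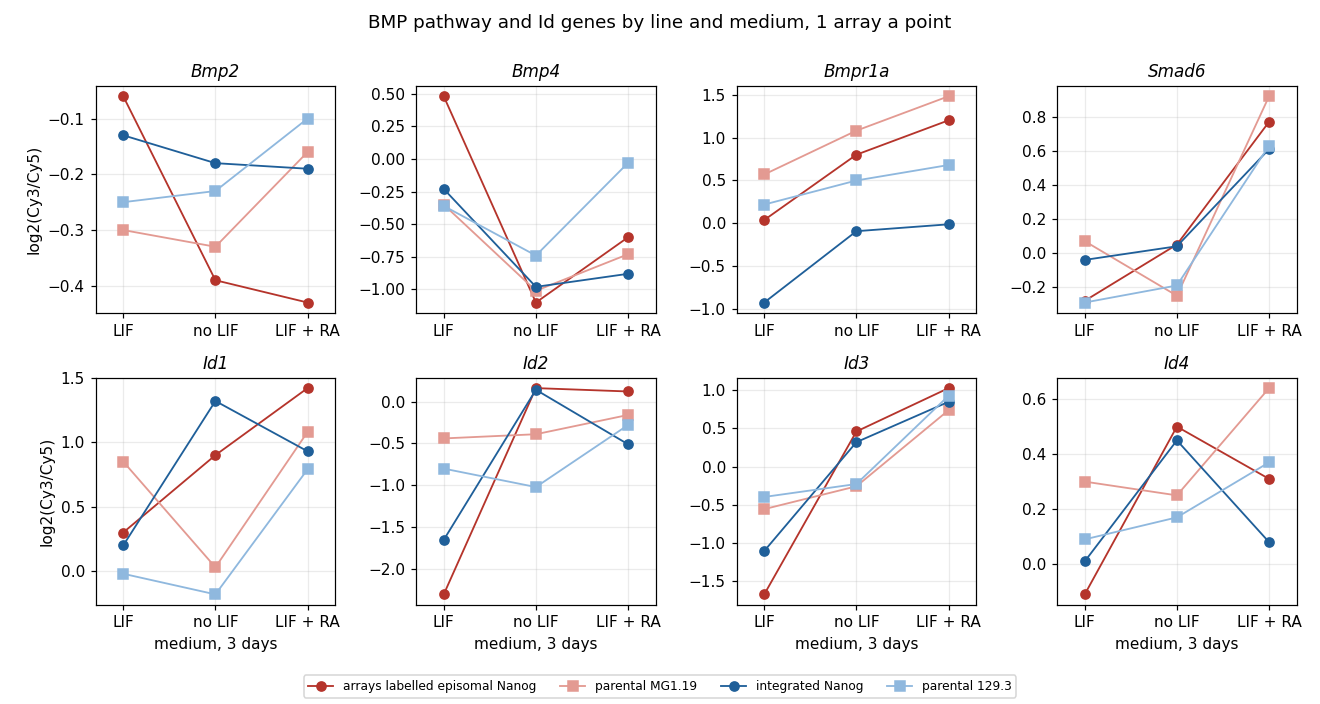
Log2 ratio of Cy3 to Cy5 of each gene in complete medium with LIF, without LIF and with retinoic acid, with 1 line of points for each of the 4 cell lines and 1 array for each point. Id2 and Id3 were lowest with LIF in the clones labelled episomal and integrated Nanog, and Id3 was highest with retinoic acid in all 4 lines.

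With retinoic acid 3 of the 8 genes were called, all up, against 5.87% of probes, and the median log2 change was 0.79 beside -0.01 over all probes. Id3 read -1.68, -1.11, -0.56 and -0.40 with LIF in the clones labelled episomal and integrated Nanog, MG1.19 and 129.3, and 1.03, 0.85, 0.74 and 0.93 in the same order with retinoic acid. The media did not overlap, and the lines lay close together with retinoic acid but not with LIF. The log2 change was 1.83 (SE 0.29, 3.54-fold, limma adjusted p = 0.00424). Smad6 read -0.28, -0.04, 0.07 and -0.29 with LIF and 0.77, 0.61, 0.92 and 0.63 with retinoic acid, without overlap. Its log2 change was 0.87 (SE 0.11, 1.83-fold, limma adjusted p = 0.00117). Bmpr1a rose in 4 of 4 lines, by 1.16, 0.92, 0.91 and 0.46, although the lines themselves differed so much that the media overlapped (mean log2 change 0.86, SE 0.11, limma adjusted p = 0.0013).

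Id2 and Id1 differed by 1.09 and 0.72 with retinoic acid, higher in 4 of 4 lines, but neither was called (limma adjusted p = 0.135 for both). Bmp4, Id4 and Bmp2 differed by -0.45, 0.28 and -0.03, not called, and the Bambi-ps1 probe by -0.38, under 1.5-fold. Beside this, 6 of 7 primitive endoderm markers, 4 of 6 fibroblast markers and 7 of 12 trophoblast markers rose with retinoic acid, and 5 of 8 ES markers fell. The summed level of the primitive endoderm markers was 15.7 to 26.3 times the negative controls with LIF and 30.8 to 84.4 times with retinoic acid, and that of the fibroblast markers 9.43 to 15.2 and 11.3 to 25.2 times. The part of these markers' cells in the rise of Id3, Smad6 and Bmpr1a was not tested.

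Without LIF 1 of the 8 genes was called, against 1.04% of probes, with a median log2 change of 0.23 beside 0.01 over all probes. Bmpr1a read 0.04, -0.92, 0.57 and 0.22 with LIF and 0.80, -0.09, 1.08 and 0.50 without it, in the order of lines given above. It was higher in each line, though the media overlapped across lines. Its log2 change of 0.60 (SE 0.11, 1.51-fold, limma adjusted p = 0.0358) lay at the threshold, and was lost with Cy3 alone (0.57), in the parental lines alone (0.40), and without the clone labelled episomal Nanog (0.54), the clone labelled integrated Nanog (0.52) or MG1.19 (0.63). Bmp4 was lower without LIF in 4 of 4 lines, with differences of -1.58, -0.75, -0.67 and -0.38 and a mean log2 change of -0.85 that was not called (SE 0.20, limma adjusted p = 0.0843).

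For Id2 and Id3, the values without LIF lay further from those with LIF in the Nanog clones than in the parental lines. Id2 read -2.30 with LIF and 0.16 without it in the clone labelled episomal Nanog, and -1.65 and 0.14 in the clone labelled integrated Nanog, but -0.44 and -0.39 in MG1.19 and -0.80 and -1.02 in 129.3. Id3 likewise went from -1.68 to 0.46 and from -1.11 to 0.32 in the clones, and from -0.56 to -0.26 and -0.40 to -0.23 in the parental lines. Id1 was higher without LIF by 0.60 and 1.12 in the clones and differed by -0.82 and -0.16 in the parental lines. Over all 4 lines the log2 changes of Id2, Id3 and Id1 were 1.02, 1.01 and 0.19, none called (limma adjusted p = 0.308, 0.138 and 0.827).

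A term for the difference in this response between clones and parental lines was added after these values had been seen. It gave 2.21 for Id2, 1.55 for Id3, 1.35 for Id1 and 0.51 for Id4 on the log2 scale, each with an unadjusted limma p under 0.05. None passed after adjustment over all probes (limma adjusted p = 0.815 for each), and no probe did (0% of 41006; 2253 had an unadjusted p under 0.05). For retinoic acid the same term called none of the 8 genes and 0% of probes (2702 had an unadjusted p under 0.05 by limma). It gave 1.38 for Id2, 1.02 for Id3, -0.84 for Bmp4 and -0.35 for Bmp2. Each of these had an unadjusted limma p under 0.05 and a limma adjusted p of 0.724. Both terms share the arrays with LIF.

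Between each clone and its parental line in the same medium, none of the 8 genes was called over the 6 pairs, against 0.00488% of probes (2 probes by limma, with 8094 at an unadjusted p under 0.05). These pairs came from only 2 clones, each set against its parental line in every medium, so they are not 6 independent replicates. The limma tests here treated the 6 differences as independent, so their p-values do not measure the spread between clones. Bmpr1a was lower in the clone in 6 of 6 pairs, with differences of -0.53, -0.28, -0.28, -1.14, -0.59 and -0.69. Its mean log2 difference was -0.59 (SE 0.11, limma adjusted p = 0.0768). For Id2 the differences were -1.86 and -0.85 with LIF, 0.55 and 1.15 without LIF and 0.28 and -0.23 with retinoic acid, for the clones labelled episomal and integrated Nanog in turn. The sign thus depended on the medium. For Id3 they were -1.12 and -0.70 with LIF and 0.72 and 0.55 without it. The difference between the integrated and episomal clones was called for none of the 8 genes, against 0.812% of probes (333 probes by limma, with 5247 at an unadjusted p under 0.05), and clone, line background and the day on which the scans were feature-extracted cannot be told apart.

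Another 42 genes of the pathway were listed as ligands, receptors, SMADs, antagonists, and partners or targets of Id and BMP proteins. On the late arrays 33 of them were measured, and 6 were higher and 4 lower at 120 hr, against 20.7% of all probes, with a median log2 change of 0.10. By role, 2 of 7 ligands rose and 1 fell, no receptor of 7 rose and 1 fell, 1 of 6 SMADs rose and 1 fell, 2 of 9 antagonists rose and none fell, and 1 of 4 Id partners and BMP targets rose and 1 fell.

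Gdf3, a TGF-beta family ligand of pluripotent cells, read 2.41, 2.52 and 2.31 at 0 hr and 0.13, 0.09 and 0.13 at 120 hr. It thus lost nearly all of its ratio (log2 change -2.30, 4.91-fold lower, limma adjusted p = 3.83e-15), and ended with a signal near that of the negative controls. Bmp8a and Bmp8b, 2 closely related ligands, rose 1.87-fold and 1.54-fold. How far each probe reads the other gene was not tested. Both were dim at 0 hr, where the Cy3 signal of Bmp8a was 1.21 to 1.29 times the negative control level and that of Bmp8b no higher. Eng, a co-receptor of the family, read 0.89, 0.89 and 1.11 at 0 hr and 0.23, 0.10 and 0.06 at 24 hr. It was thus already lower at 24 hr (log2 change -0.83), and was 1.96-fold lower at 120 hr. Its Cy3 signal was near the negative control level throughout, at 1.21 to 1.39 times at 0 hr and 1.06 to 1.13 times at 24 hr.

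Smad1, a SMAD of the BMP branch, read -0.45, -0.14 and -0.17 at 0 hr, then 0.91, 0.88 and 0.89 at 120 hr, a 2.21-fold rise (limma adjusted p = 6.14e-10). Smad7, the other inhibitory SMAD, read 2.79, 2.51 and 2.69 at 0 hr, 2.71, 2.62 and 2.12 at 24 hr, then 0.95, 1.18 and 1.05 at 120 hr. It overlapped 0 hr at 24 hr, the time when Smad6 peaked, and then fell 3.04-fold by 120 hr (limma adjusted p = 4.22e-09). The antagonists Nbl1 and Twsg1, both secreted proteins that bind BMPs, rose 2.16-fold and 1.64-fold.

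Msx2, a homeobox gene that BMP signals induce in many tissues, read 0.22, 0.11 and 0.23 at 0 hr, 1.05, 0.97 and 0.74 at 24 hr, then 1.89, 2.28 and 2.25 at 120 hr (log2 change 1.96, limma adjusted p = 5.72e-11). Tcf4, one of the E proteins that Id proteins bind, went from -2.15, -2.03 and -2.08 at 0 hr to -3.83, -3.89 and -3.62 at 24 hr and stayed there (log2 change -1.74 at 120 hr, limma adjusted p = 8.98e-13). Id2 and Msx2 were thus called higher, and Tcf4 lower, from the first late time point on. The late Cy3 signal of Msx2 was 0.985 to 1.02 times the negative control level at 0 hr and still near that level at 24 hr. It was 1.46 to 1.86 times that level at 120 hr. A signal this near the negative controls presses ratios together, so the size of the Msx2 changes is uncertain.

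**Figure D4:**
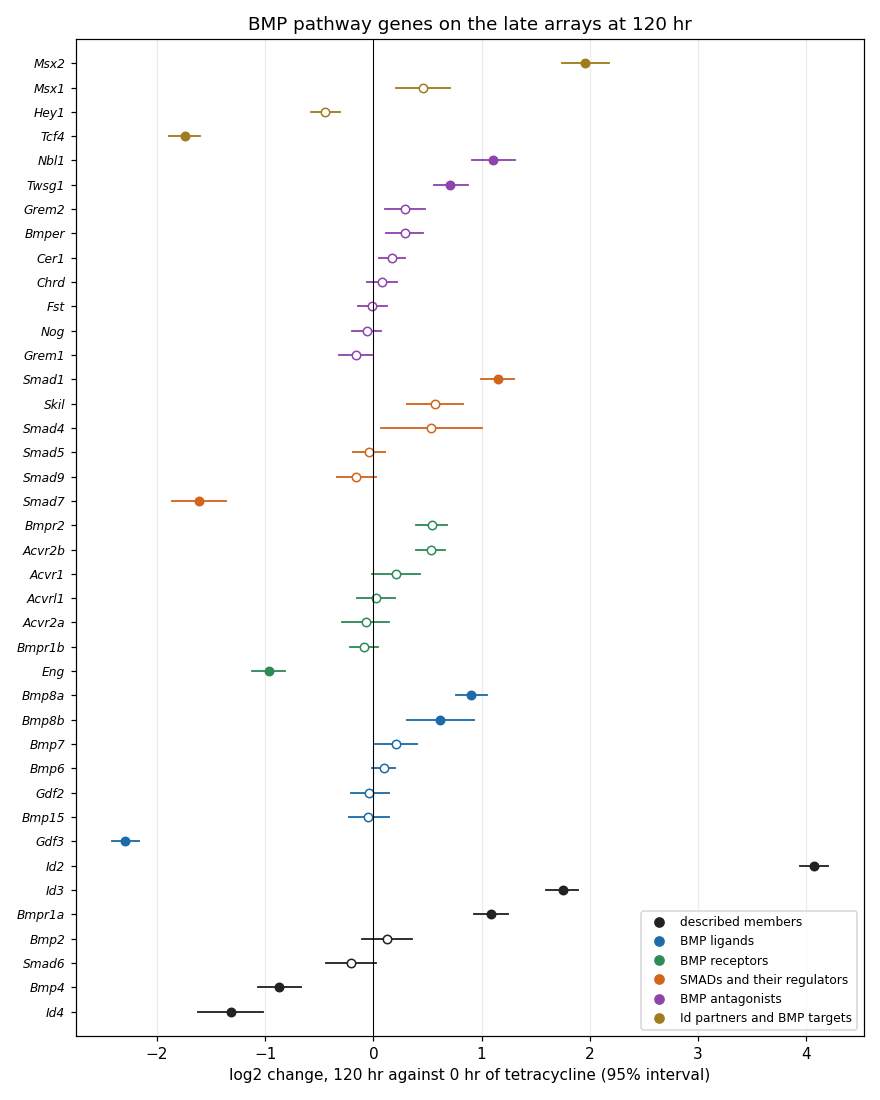
Log2 change at 120 hr on the late arrays for the 7 genes and the 33 other pathway genes measured, grouped by role, with bars for the 95% confidence interval and filled points for those called. Id2 had the largest rise at 4.07, and Gdf3 the largest fall at -2.30.

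On the early arrays 4 of the 36 other pathway genes measured had risen and 2 had fallen at 24 hr, against 9.02% of all probes called. Gdf3 was 1.67-fold lower there, Nbl1 and Twsg1 were 2.93-fold and 1.86-fold higher, and Tcf4, which was lower on the late arrays at 24 hr, was 1.53-fold higher. This difference in the 24 hr response of Tcf4 was -2.31 (late minus early, limma adjusted p = 2.06e-10). Skil, a repressor that binds SMADs, differed the other way, by 0.92 (limma adjusted p = 0.000699). The early Cy3 signal of Nbl1 was 2.15 and 1.95 times the negative control level at 0 hr, and 2.76 and 2.15 times at 24 hr. That of Tcf4 was 4.48 and 3.96 times, then 4.61 and 4.74 times. The part of the Cy5 channel in the early rises of Nbl1, Twsg1 and Tcf4, and in the late minus early differences, was not tested. In the Nanog experiment 7 of 36 rose with retinoic acid and none fell, against 5.87% of all probes called (median log2 change 0.16): Msx2 (2.4-fold), Msx1 (2.18-fold), Smad1 (2-fold), Twsg1 (1.9-fold), Bmper (1.85-fold), Bmp7 (1.67-fold) and Smad7 (1.66-fold). Without LIF 2 of 36 rose, against 1.04% of all probes called. Fst, the activin-binding protein follistatin, read -1.99, -1.60, -0.71 and 1.56 with LIF and 0.86, 0.21, 1.97 and 3.03 without it (log2 change 2.20, limma adjusted p = 0.0358). Msx1 went from -1.04, -1.07, -0.87 and -0.31 to 0.51, 0.39, 0.68 and 0.94 (log2 change 1.45, limma adjusted p = 0.00695). Both rose in all 4 lines.

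The genes whose levels over the 18 late arrays were most like those of each member were named by Pearson correlation among 8826 genes, as a description, since all share the same arrays and the same time course. For Id2 they were Sema4c (r = 0.992), Nsd2 (0.989) and Prss8 (0.989), and for Id3 Phlda1 (0.98), Slc12a4 (0.976) and Rell1 (0.975). For Bmpr1a they were Nt5dc3 (0.991), Rragc (0.985) and Stxbp3 (0.985), and for Smad6 Emc8 (0.977), Ccdc102a (0.977) and Klhl21 (0.969). For Bmp4 the highest values were those of Septin1 (0.956), Zfpl1 (0.951) and Tuba4a (0.944), and for Id4 those of Pde9a (0.97), Cep110 (0.964) and Ddx49 (0.961).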

How the data were processed

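The arrays were Agilent 2-colour arrays (3 designs). The deposited scanner files hold spot intensity in both channels from Feature Extraction A.7.5.1, per the file headers. The authors' value tables hold normalized log10 expression that follows Cy3 (r with log10 Cy3 0.97 to 0.996, with the log ratio 0.134 to 0.334, column medians 2.91 to 2.99); the method behind the tables' scale is not given in the sources used here. In 1 deposited column, read as a score, 10 cells held a code for missing values and were set missing. Two-colour signals were background-corrected (normexp, offset 50), normalized by loess and tested as log2(Cy3/Cy5) in limma 3.58.1 (R 4.3.3), with no covariate in the time courses, the line as a block for media, and differences within 6 pairs for clones, at Benjamini-Hochberg adjusted p under 0.05 and 1.5-fold. The early arrays entered 1 fit of 10, the late arrays 1 of 18, the Nanog arrays 1 of 12. Spots marked as outliers were missing, so that Bmp4 lacks a value on 1 array at 3 hr. All probes named here were above local background, as were 99.7 to 100% of all gene probes per array, and none was saturated. Local background lay under the negative controls, which presses the ratios of dim probes together. Groups came from the sample labels. The number of arrays limits the precision.

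Probes were named through accessions, identical probes of another design, or the study's tables (Bmp4, Bmpr1a, Id1 and Bambi-ps1). The genes named are the listed members by their brightest probe, other pathway genes called at 120 hr on the late arrays (largest first, up to 4 a list and 12 in all), up to 3 called in another comparison, and the 3 genes most correlated with each member. Tcf4, Nbl1, Twsg1, Gdf3, Eng and Msx2 at further times, and Bmper, Bmp7, Smad1 and Smad7 with retinoic acid, were named outside this rule, after their values were seen. The members and all gene lists were chosen with earlier results of these data known. The scripts were tested on simulated data. Alternatives were the scanner's processed signals, the authors' tables, Cy3 alone, the study's correction for Cy5 fading, its error variance rule, no dim probes, a replicate block, leaving out arrays, lines or pairs, the parental lines alone, and, chosen after seeing the data, a term for clones against parental lines and a separate spread for each experiment.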

Additional observations from a re-analysis of the deposited data

Results flagged for a closer look

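The response to 24 hr of tetracycline differed between the late and early time courses, by limma's test of the difference itself, for Smad6 (1.80 on the log2 scale, late minus early), Id3 (1.27), Bmp4 (-1.49) and Id4 (-0.61). With a separate spread for each experiment, added after seeing the data, 4 of the 7 genes still differed (2806 probes in all, against 2918 with a shared spread). The sign for Bmp4 turned with the channel used and also after the Cy5 correction, as given above. The Cy5 level of Bmp4 on the early arrays lay between 9.54 and 10.42 at 24 hr against 11.67 and 11.91 at 0 hr. The cause of the difference was not tested.

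Without LIF, Id1 was higher in both Nanog clones (0.60 and 1.12) and lower in both parental lines (-0.82 and -0.16), a difference of 1.35 (limma adjusted p = 0.815). With retinoic acid Bmp2 was lower in both clones (-0.36 and -0.06) and higher in both parental lines (0.14 and 0.15), a difference of -0.35 (limma adjusted p = 0.724). Each sign came from 1 array per line and medium, and neither difference passed the test.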

How the results depend on the processing

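Of the early time points, 5 calls of members became 8 with Cy3 alone, 3 after the Cy5 correction and 0 under the study's error variance rule (7 of 32 had an unadjusted p under 0.05 by it), and 3 to 9 with single arrays left out (3 without replicate 1 at 0 hr, 9 without replicate 1 at 12 hr). Calls over all early probes went from 4969 to 1871 with the authors' tables, 2875 with Cy3 alone, 1381 after the Cy5 correction, 0 under the error variance rule and 1629 to 6810 with arrays left out. Bmp4 at 24 hr early turned from 1.07 to -0.82 with the authors' tables and to -0.80 with Cy3 alone, and its late minus early difference from -1.49 to 0.56, 0.50 and 0.18 (authors' tables, Cy3 alone, Cy5 correction). Late member calls were 21 (19 to 22 over the settings, 20 to 21 with arrays left out), consecutive steps 6 (5 to 7 in both), the late minus early difference 4 (3 with the processed signals, the authors' tables and the Cy5 correction, 3 to 4 with arrays left out; all probes 2918, but 1400 after the Cy5 correction) and retinoic acid 3 (3 to 3; all probes 2407, or 1563 to 2448). Without LIF the single call became 0 with Cy3 alone and 0 in the parental lines alone, and 0 to 1 with lines left out; all probes went from 425 to 29 in the parental lines alone and 11 to 543. Clone comparisons called no member under the alternatives tried, while all probes went from 2 to 0 with Cy3 alone (0 to 99 with pairs left out) and from 333 to 14 to 381. Without dim probes every member count was the same.

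Same-numbered arrays did not deviate together in every pair (r -0.14 to 0.34 over 20 early pairs, -0.43 to 0.75 over 45 late pairs). For 10 of 10 early and 12 of 18 late arrays the mean correlation with arrays of other times was highest for their own number. That is a hint from the data only. With the replicate block 7 early and 21 late member calls were made (5 and 21 without), adding Bmp4 at 24 hr early (1.07, adjusted p = 0.0183) and Id2 at 6 hr early (1.41, adjusted p = 0.0153); it changed no other member call. The causes of these changes were not tested. Other probes of a gene could not be tried, since each had 1, and a scan-day block was not run, since the files hold no scan day.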
